A study of Mus musculus with 3 samples.

Results

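A set of 10 basic helix-loop-helix (bHLH) transcription factor genes of mesoderm, namely Hand1, Hand2, Tcf15, Tcf21, Tcf23, Tcf24, Msc, Scx, Tal1 and Mesp1, was examined for ubiquitinated histone H2A (H2AK119ub) in sorted tongue epithelium of control mice, newborn at postnatal day 0. These are 10 of the 21631 protein-coding genes annotated outside the Y chromosome. The regions taken were those that carried the name of one of these genes in the authors' lists, whatever their location class, or that overlapped the bounds of one. They numbered 9 of 7838 regions in replicate 1 and 10 of 8093 in replicate 2.

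The cells were sorted for the epithelial surface protein EpCAM from tongues cut to leave out the circumvallate papillae, and the labels describe basal cells from animals of control genotype, naming no strain, allele or sex. Both H2AK119ub libraries belong to a single group, described by the submitters as biological replicates, so no treatment, genotype or age was compared. The remaining library, an input made without an antibody, was not analysed here. Each list gives positions in the mouse assembly mm10, a location class and gene names, with no read count, height or p-value, so sequencing depth is unknown and only presence, position and width are described.

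The bHLH factors bind DNA as dimers, usually with a broadly present E protein, at short motifs called E-boxes. Most of the genes treated here direct the early fates of mesoderm (heart, somite, tendon, blood and the connective tissue of organs). The set is not one of markers of stratified epithelium. H2AK119ub is laid down by Polycomb repressive complex 1 (PRC1), which is best known for holding genes of other lineages silent, and broad stretches of the mark typically lie over developmental transcription factor genes. The lists hold no expression values, so the sorted cell type could not be checked against its transcripts. Among 6 epithelial genes (Epcam, Krt5, Krt14, Trp63, Cdh1 and Krt8), 0 were named by a promoter region in both replicates, and Krt5 and Krt8 were named in replicate 2 alone. Of 5 fibroblast and mesenchyme genes, Vim, Pdgfra and Pdgfrb were named in both, and Dcn and Lum in neither. Of 4 endothelial genes 0 were named in both, with Kdr in replicate 1 alone. Of 4 skeletal muscle genes 0 were named by a promoter region in either replicate. Of 4 blood and immune genes, Csf1r was named in both and Hba-a1 in replicate 2 alone. Since 8.82% of all protein-coding genes were named in both, counts of 0 in lists this small say little.

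The bases just upstream of a transcription start are shown for 4 of the genes, because they span the extremes of the values given further on. Hand2 had the widest region, Tal1 had a pair of annotated starts inside a single region, Mesp1 lay in a region although its window held few CpG dinucleotides, and Tcf23 had no region. Each window holds the 250 bases before a start, read 5′ to 3′ along the gene's own strand, from RefSeq on GRCm38.p6 (the same assembly as mm10). Capitals mark the CpG dinucleotides (CG). The windows are chr8:57320733-57320982 on the plus strand for Hand2, chr4:115056176-115056425 and chr4:115057561-115057810 on the plus strand for the first and second start of Tal1, chr7:79793591-79793840 on the minus strand for Mesp1 and chr5:30968427-30968676 on the plus strand for Tcf23.
Hand2: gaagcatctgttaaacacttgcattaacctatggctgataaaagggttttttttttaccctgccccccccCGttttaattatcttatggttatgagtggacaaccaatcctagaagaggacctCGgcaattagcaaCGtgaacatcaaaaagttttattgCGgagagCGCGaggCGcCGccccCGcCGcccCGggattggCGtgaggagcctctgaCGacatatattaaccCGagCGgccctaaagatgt
Tal1, first start: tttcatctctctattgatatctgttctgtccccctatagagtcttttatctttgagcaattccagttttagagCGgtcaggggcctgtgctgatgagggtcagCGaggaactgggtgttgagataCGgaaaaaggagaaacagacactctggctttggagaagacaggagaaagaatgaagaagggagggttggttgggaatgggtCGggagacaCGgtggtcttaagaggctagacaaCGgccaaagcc
Tal1, second start: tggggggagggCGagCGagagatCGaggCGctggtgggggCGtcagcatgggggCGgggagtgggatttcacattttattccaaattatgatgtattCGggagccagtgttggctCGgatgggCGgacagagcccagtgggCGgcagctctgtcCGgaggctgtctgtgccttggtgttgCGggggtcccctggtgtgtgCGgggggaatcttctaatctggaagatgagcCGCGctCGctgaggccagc
Mesp1: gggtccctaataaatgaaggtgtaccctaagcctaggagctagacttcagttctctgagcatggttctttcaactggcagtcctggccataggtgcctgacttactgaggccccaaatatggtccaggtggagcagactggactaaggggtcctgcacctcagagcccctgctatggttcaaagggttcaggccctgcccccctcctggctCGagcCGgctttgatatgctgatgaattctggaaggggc
Tcf23: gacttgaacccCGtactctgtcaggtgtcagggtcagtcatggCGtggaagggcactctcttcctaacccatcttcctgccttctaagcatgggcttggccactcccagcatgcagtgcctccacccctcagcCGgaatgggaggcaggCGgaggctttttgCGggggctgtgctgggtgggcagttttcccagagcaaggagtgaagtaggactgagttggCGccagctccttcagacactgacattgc

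Windows were on hand for 5 of the 10 genes, the 4 above and Tcf21, which is too few for a comparison of base composition over the set, so the values describe single windows. The Hand2 window held 15 CpG, a count reached by 27.3% of all 32851 windows. The median was 17 over the 1444 protein-coding genes with a window that were named in both replicates, and 10 over the others. These medians take the window richest in CpG of each gene. The first start of Tal1 had 6 CpG (50.4% of windows had as many) and the second had 16 (25.4%). Tcf21 had 5 (55.6%) and Mesp1 had 2 (81.2%), so a start inside an H2AK119ub region did not always have a CpG-rich window. Tcf23, with no region, had 6 CpG and a GC content of 59.2%, above the 49.2% of Hand2. The E-box letters CANNTG, which read the same on both strands, occurred 2 times each in the Hand2 and Mesp1 windows, 1 time in that of Tcf23 and 0 times in those of Tal1 and Tcf21, while 66.2% of all windows held at least 1.

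The first question was which of the genes the mark covered. Hand1, Hand2, Tcf15, Tcf21, Tcf24, Scx, Tal1 and Mesp1 were each named by a promoter region in both replicates, and Msc and Tcf23 were named by no region in either. This count of 8 of 10 stands beside 8.82% of all protein-coding genes (1908 of 21631) named in the same way. The genes were put together with earlier results of these data known, so the count carries no test. All 8 were named in each replicate taken alone, and no gene of the 10 was named in 1 replicate only. All 9 regions of replicate 1 and all 10 of replicate 2 overlapped a region of the other list by at least 1 bp, where 61.1% and 61.2% of the whole lists did. With an overlap of at least 50% of both regions of a pair required, 8 of 9 and 8 of 10 had a partner, against 35.4% and 34.3% of the lists. Those without one were the regions at Mesp1. Most of these regions are the promoter regions that named the 8 genes in both replicates, so a partner was nearly given by that count. Each was also wider than at least 75.4% of its list, so the shares of the whole lists are not a like comparison.

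**Figure D1:**
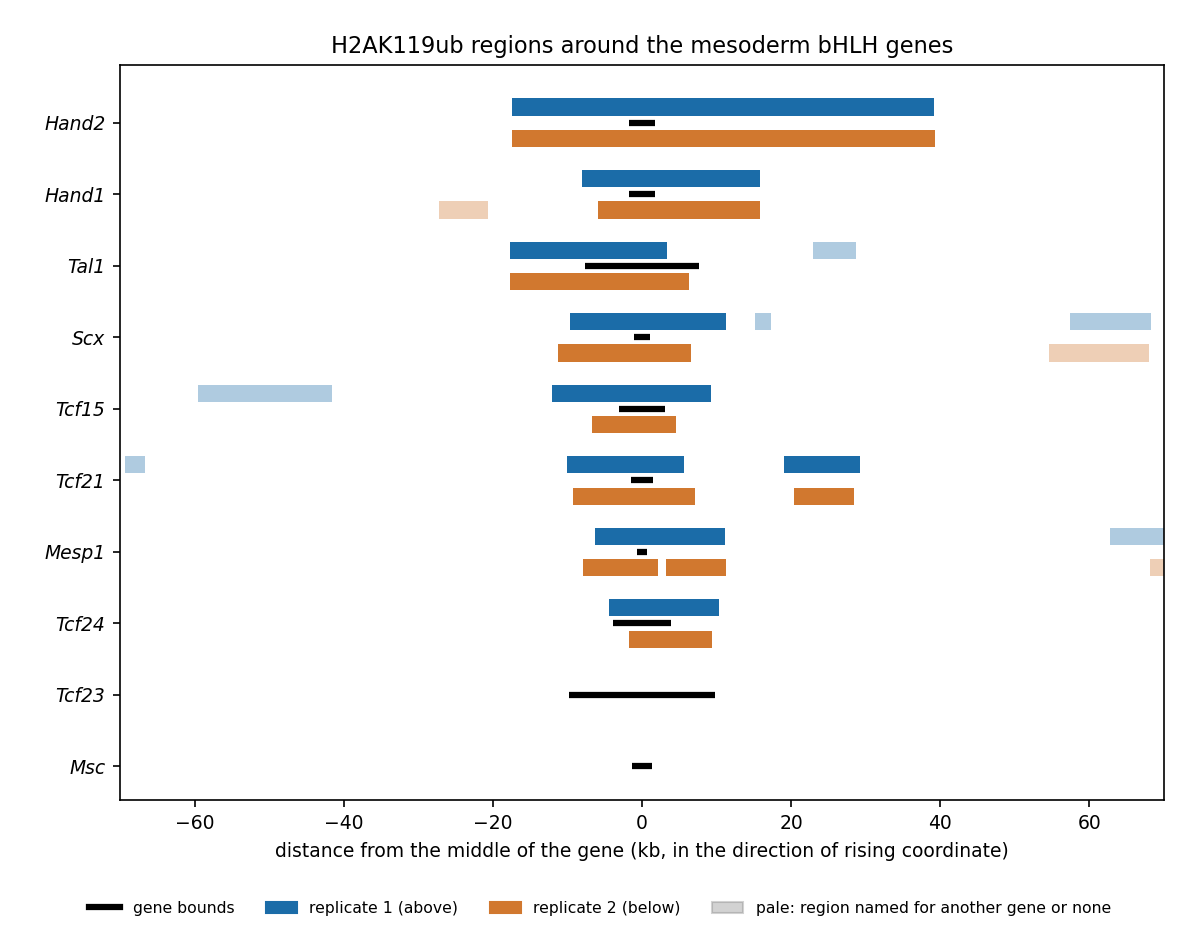
Position of H2AK119ub regions within 70 kb of the middle of each gene (horizontal axis in kb), with replicate 1 above and replicate 2 below the black bar of the gene bounds. Pale bars are regions named for another gene or for none. Hand2 lies in 1 region of 56.6 and 56.7 kb, Tcf21 has a second region apart from the first, Mesp1 has 1 region in replicate 1 and 2 in replicate 2, and Tcf23 and Msc have none in view.

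Width set Hand2 apart from the rest. Hand2, which acts in heart, limb, branchial arch and sympathetic neuron development, lay in a region of 56.6 kb in replicate 1 and 56.7 kb in replicate 2 (mean 56.6 kb ± 0.064, SD, n = 2). Both values exceeded those of the other 7 genes, of which the highest was 23.9 kb. Its mean width ranked 47 among the 1908 genes named in both replicates. In both lists this region was also named for 5033428I22Rik (now Hdnr) and AV026068, so its width is not that of Hand2 alone. The promoter regions of the other 7 genes each carried a single name. Hand1, its paralogue in heart and extraembryonic mesoderm, lay in regions of 23.9 and 21.8 kb (22.9 ± 1.46 kb). Tal1, a factor that blood and blood vessel progenitors require, lay in regions of 21.0 and 23.9 kb (22.5 ± 2.07 kb). The widths of Hand1 and Tal1 overlapped.

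Scx, the tendon and ligament factor, lay in regions of 21.0 and 17.7 kb (19.3 ± 2.28 kb). Tcf15, which acts in the formation of somites, lay in regions of 21.4 and 11.3 kb (16.4 ± 7.13 kb). Tcf21, a factor of the epicardium and of kidney and lung mesenchyme, lay in promoter regions of 15.8 and 16.3 kb (16.1 ± 0.411 kb). Mesp1, expressed in the earliest cardiovascular mesoderm, lay in promoter regions of 17.4 and 10.03 kb (13.7 ± 5.20 kb). Tcf24 lay in regions of 14.8 and 11.1 kb (12.9 ± 2.61 kb). The ranges of Tcf15 and Mesp1 overlapped with those of Tcf21 and Tcf24, so these genes could not be ordered, except that both values of Tcf21 exceeded both of Tcf24.

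Over the 8 genes the median promoter region was 21.0 kb in replicate 1 and 17.0 kb in replicate 2, against 8.08 and 6.84 kb over all 2701 and 2623 promoter regions. Regions of 20 kb or more held 5 of the 8 genes in replicate 1 and 3 of 8 in replicate 2, where 14.7% and 11.0% of all promoter regions were that wide. The narrowest of the 8, at Tcf24 in replicate 1 and at Mesp1 in replicate 2, ranked 644 in width among the 2701 promoter regions and 853 among the 2623. By mean width, Tcf24 stood above 62.7% of the 1908 genes named in both replicates. Replicate 1 had the wider region at 5 of the genes and replicate 2 at Hand2, Tcf21 and Tal1. By the widths in the 2 libraries, the genes most like Hand2 were Zic2 and Pcca, in a common pair of regions of 55.4 and 53.4 kb (distance 0.091 on the log2 width scale). Those most like Hand1 were Nr4a2 (23.7 and 22.2 kb, distance 0.026) and Foxe1 (24.1 and 22.3 kb, distance 0.033). Those most like Tal1 were Cilp2 and Yjefn3, with identical widths (20.8 and 23.6 kb, distance 0.026), so they may not be separate matches.

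**Figure D2:**
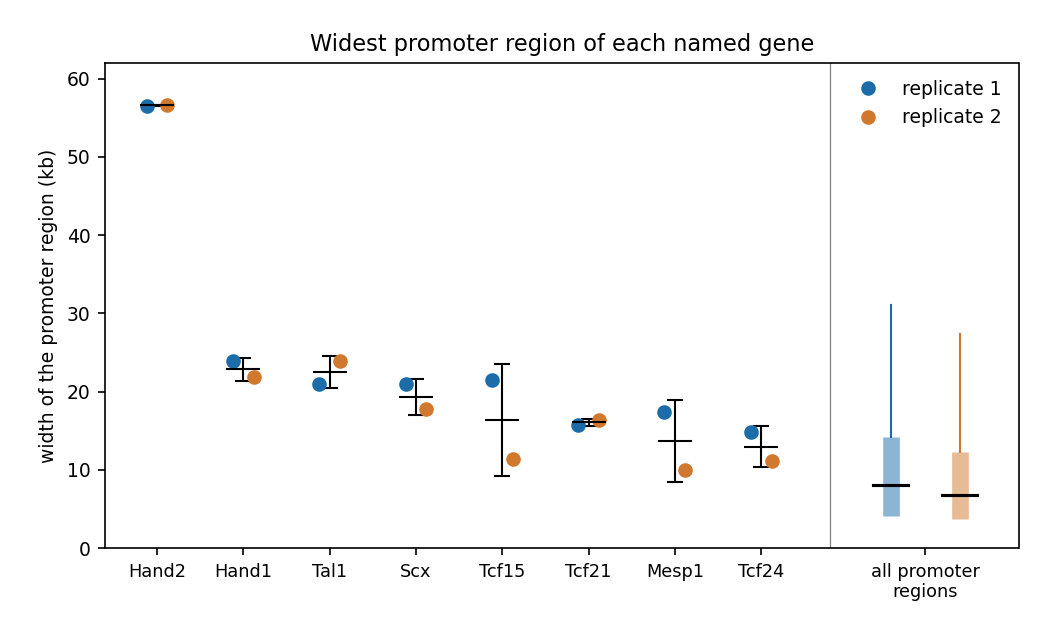
Width in kb of the widest promoter region of the 8 genes named in both replicates, with points for the replicates and bars for mean and SD (n = 2). At the right, all promoter regions of each list are drawn as the middle 50% (box), the median (line) and a line up to the 95th percentile. Hand2 stands at 56.6 kb, and Tcf15 and Mesp1 show the largest gaps between replicates.

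The second question was how closely the replicates placed the edges. Of promoter regions that overlapped exactly 1 region of the other list, and that region a promoter region too, there were 1468 pairs, and 7 of the genes were in them. For each pair the length held by both was divided by the span of the pair. The median over all pairs was 67.6%, with the middle 50% of pairs from 47.8 to 82.7%.

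At Hand2 (chromosome 8, gene bounds 57320983 to 57324517) the replicate 1 region spanned 57305316 to 57361882 and the replicate 2 region 57305375 to 57362031. The lower edges differed by 59 bp and the upper edges by 149 bp, and 99.6% of the span was held by both, a share that ranked 3 among the 1468 pairs. The median difference of an edge over all pairs was 1178 bp. Some edges at other genes were as close while the opposite edge was not. At Tal1 (chromosome 4, 115056426 to 115071755) the lower edges differed by 12 bp and the upper edges by 2909 bp, with 87.8% of the span shared. At Hand1 (chromosome 11, 57828713 to 57832147) the upper edges differed by 52 bp and the lower edges by 2120 bp, with 90.9% shared.

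Tcf21 (chromosome 10, 22817263 to 22820143) shared 86.4% of its span, Tcf24 (chromosome 1, 9960163 to 9967981) 74.997% and Scx (chromosome 15, 76457411 to 76459468) 71.7%. Tcf15 (chromosome 2, 152143056 to 152149097) shared 53.0%, below the median pair. Its replicate 2 region, 152139328 to 152150675, lay wholly within that of replicate 1, 152133958 to 152155382, which was 1.89 times as wide. Of the 7 genes, 6 were above the median pair in this share and Tcf15 was below it. In bp, however, the median difference of an edge over the 7 genes was 1516.5, above the 1178 of all pairs. The share depends on width as well as on the edge differences, and these regions were wider than most. The higher shares therefore do not mean that the edges were placed more closely.

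**Figure D3:**
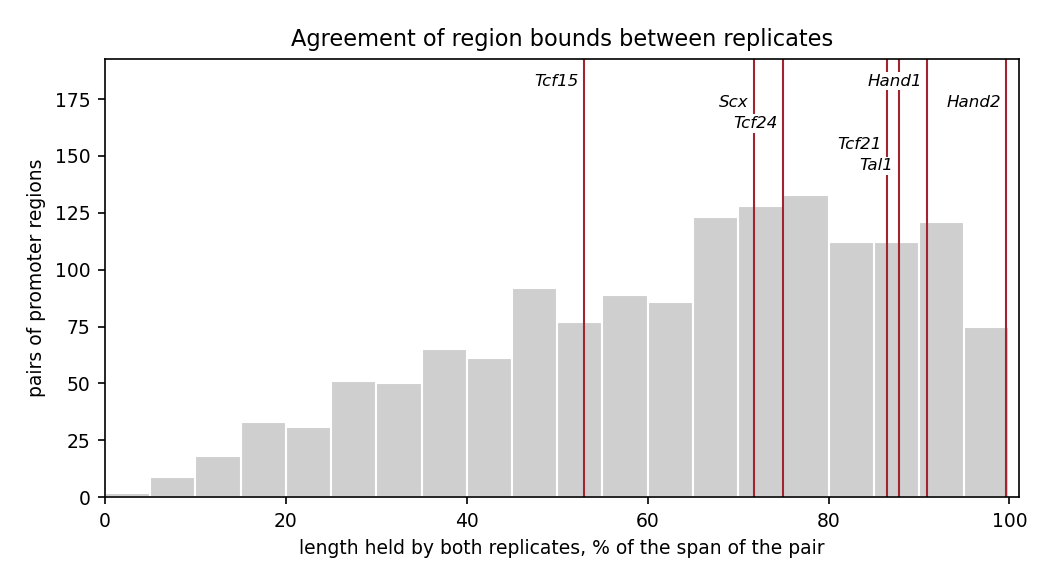
Length held by both replicates as a percent of the span of a pair of promoter regions (horizontal axis), for 1468 pairs (grey bars, number of pairs per 5 percentage points). Red lines mark 7 genes, from Tcf15 at 53.0% to Hand2 at 99.6%.

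Mesp1 (chromosome 7, 79792241 to 79793590) was not among those pairs, because its stretch was divided in replicate 2. Replicate 1 had 1 promoter region from 79786621 to 79804006. Replicate 2 had a promoter region from 79784999 to 79795031 and, 1125 bp further on, a distal region of 8.05 kb from 79796156 to 79804206, both carrying the name Mesp1. From first to last base the stretch measured 17.4 kb in replicate 1 and 19.2 kb in replicate 2, so the drop from 17.4 to 10.03 kb in the width of the promoter region accompanied a break and not a shorter stretch. The smallest gap between neighbouring regions in the lists was 1000 bp in replicate 1 and 999 bp in replicate 2, so this break was close to the shortest the lists contain.

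Tcf21 had a second region in both replicates, of the distal class and named for it. In replicate 1 it spanned 22837792 to 22847954 (10.2 kb), in replicate 2 it spanned 22839088 to 22847142 (8.05 kb), and it began 17.6 and 18.9 kb from the gene. It lay inside the bounds of the long noncoding RNA gene Gm51761, of which it covered 57.4 and 45.5%. The stretch between it and the promoter region was 13.4 kb in replicate 1 and 13.3 kb in replicate 2. Tcf21 was the only one of the 10 genes with a distal region in both replicates.

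The third question was how the regions sat on the genes. Hand1, Hand2, Tcf15, Tcf21, Scx and Mesp1 were covered over their whole bounds in both replicates, 6 of 10, where 1.89% of all protein-coding genes (408) were. These are short genes, from 1.35 kb at Mesp1 to 6.04 kb at Tcf15, and the median over the 10 was 3.49 kb against 16.8 kb for all genes named in both replicates. Of the 903 named genes no longer than Tal1 (15.3 kb), 41.3% were covered over their whole bounds in both. Tal1 was covered to 71.7% in replicate 1 and 90.7% in replicate 2 (81.2% ± 13.4, SD, n = 2), the uncovered part being the end with the higher coordinates. Tcf24 was covered to 100% and 72.1% (86.0% ± 19.7), the uncovered part being the end with the lower coordinates.

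For genes whose start was on hand, the region reached different lengths to either side. The Hand2 region extended 15.7 and 15.6 kb upstream of the start and 40.9 and 41.0 kb downstream, so most of it lay past the gene, which is 3.54 kb long. At the first start of Tal1 it extended 10.01 and 10.03 kb upstream, and 11.0 and 13.9 kb downstream. At Tcf21 the promoter region extended 4.21 and 5.66 kb upstream and 11.6 and 10.7 kb downstream. At Mesp1 it extended 10.4 kb upstream in replicate 1 and 1.44 kb in replicate 2, where the break lay upstream of the start.

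Beyond the genes themselves, the regions also covered noncoding genes and, at a few loci, parts of other coding genes. The Hand2 region covered the divergent noncoding gene Hand2os1 (57304261 to 57320859), a known regulator of Hand2 in heart, to 93.6 and 93.3%, and all of Hdnr (57332435 to 57354580) and Gm34030. It overlapped 0 other protein-coding genes. The Hand1 region covered all of Gm32915, that of Tcf15 all of Gm31535, the Tcf21 promoter region all of Gm10824, and that of Tal1 all of Gm52674 and Gm33786, in both replicates. In total 5 of 8 promoter regions overlapped an annotated long noncoding RNA gene. Among all promoter regions at least as wide as the narrowest of the 8, 43.9% did in replicate 1 and 38.7% in replicate 2. Other protein-coding genes were reached at Tcf24, where the region extended over 12.9 and 10.7% of Ppp1r42, and at Scx, which lies within the bounds of Bop1, a ribosome biogenesis gene. The Scx region covered 69.1 and 49.4% of Bop1 and 5.82 and 7.99% of Mroh1. At Mesp1 the promoter region covered all of the pseudogene Gm44705 in both replicates and, in replicate 2 alone, 2.22% of the protein-coding gene Wdr93. The lists named the Scx region for Scx alone, and in replicate 1 a separate promoter region of 2.18 kb was named for Hsf1 and Bop1. Since Scx and Bop1 overlap, overlap by itself cannot assign the Scx region to 1 of them.

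Neighbouring genes were then counted in the same way. Within 100 kb of the 10 genes lay 45 other protein-coding genes, of which 3 (6.67%) were named by a promoter region in both replicates, near the 8.82% of all protein-coding genes. They were Kif7 near Mesp1, Scrt1 near Scx and Cad near Tcf23. Replicate 1 named 10 of the 45, these 3 included, a higher share than the 12.8% of all protein-coding genes that it named. Bop1, Hgh1, Hsf1, Mroh1 and Scrt1 among them lay near Scx. Replicate 2 named 6 of the 45, the same 3 included, a share near its 12.4% of all protein-coding genes. Mesp2, the somite-patterning paralogue of Mesp1, starts 17.1 kb from it, was named by no region, and lay 6.72 and 6.52 kb beyond the nearest edge. Next to Tal1, Stil on the lower side had no region over it, and Pdzk1ip1 on the upper side was named in replicate 1 alone, by a promoter region of 5.79 kb. Sap30l, next to Hand1, was named in replicate 2 alone, by one of 6.63 kb. Hand2 and Msc had no other protein-coding gene within 100 kb, and the next region beyond that of Hand2 began 135 and 134 kb away. The Tcf24 region had its nearest neighbour 3126 kb away in replicate 1 and 164 kb away in replicate 2.

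Msc and Tcf23 stood without a region. Msc, also called MyoR, is a repressor that acts with Tcf21 in the facial muscles. Its bounds (chromosome 1, 14753344 to 14756089) lay 241 and 242 kb from the nearest region, an intergenic one of 12.1 kb in replicate 1 and 12.5 kb in replicate 2. Of all protein-coding genes, 26.5% were farther than Msc from any region in both replicates. Tcf23 is a family member known to restrain other bHLH factors. Its bounds (chromosome 5, 30968602 to 30988062) lay 64.7 kb from the nearest region in both replicates, in each case a promoter region named for Cad (3.78 and 1.28 kb), and 45.5% of protein-coding genes were farther in both. Both distances were thus common among protein-coding genes, and the lists cannot tell an absent mark from a weak one.

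The last comparison set the 10 genes beside relatives and partners, from lists put together by function. Each count stands beside the 8.82% of all protein-coding genes named in both replicates, so low counts in lists this small say little. Of 12 other genes of the Twist, Tal, Nhlh and Mesp type, 3 were named in both replicates, namely Twist1 (19.1 and 24.6 kb), a factor of cranial mesenchyme, Lyl1 (7.46 and 12.8 kb), the blood paralogue of Tal1, and Nhlh2 (12.6 and 5.72 kb). Twist2 and Bhlha9 were named by a promoter region in replicate 1 alone, while Tal2, Mesp2 and Msgn1 were in neither. Paralogues differed in presence, with Tal1 and Lyl1 named and Tal2 not, and Mesp1 named and Mesp2 not.

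Of the 3 E protein genes that supply the common dimer partner, Tcf3, Tcf4 and Tcf12, 0 had a promoter region in either replicate. With 8.82% of all protein-coding genes named in both, a count of 0 of 3 is not particular to these genes. Tcf3 and Tcf12 were named by regions of other classes in both, with no region over the gene bounds. Of the 4 Id genes, whose products sequester E proteins, Id3 was named in both (22.6 and 23.99 kb) and Id1, Id2 and Id4 in neither. Of the 4 myogenic bHLH genes, Myod1 was named in both (6.19 and 8.19 kb). Of 18 proneural and oligodendrocyte bHLH genes, 10 were named in both, with the widest at Neurod2 (53.0 and 44.6 kb). Neurod2 was the one gene of these bHLH lists whose mean width (48.8 kb) came near that of Hand2.

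Among 14 factors outside the bHLH family that work with these genes in heart, tendon, kidney or blood, 8 were named in both replicates. The widest were at the cardiac factors Gata4 (46.7 and 48.1 kb) and Nkx2-5 (34.9 and 30.9 kb), at the blood factor Runx1 (28.5 and 31.4 kb) and at Wt1 (35.1 and 21.2 kb), a factor of kidney and epicardium. Gata2 (24.3 and 22.3 kb) and Lmo2 (11.5 and 15.7 kb), which form a blood complex with Tal1, were named in both, while their cofactor Ldb1 was named in replicate 2 alone (3.48 kb). Gata1, on X, lay 348 and 386 kb from the nearest region. Of 7 textbook target or output genes of these lineages, Klf1 was named in both, in regions of 3.39 and 3.79 kb. Col1a1 was named in replicate 1 alone, and Tnmd, Col1a2, Nppa, Nppb and Epor in neither. The lists are small, and differences between them were not tested.

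**Figure D4:**
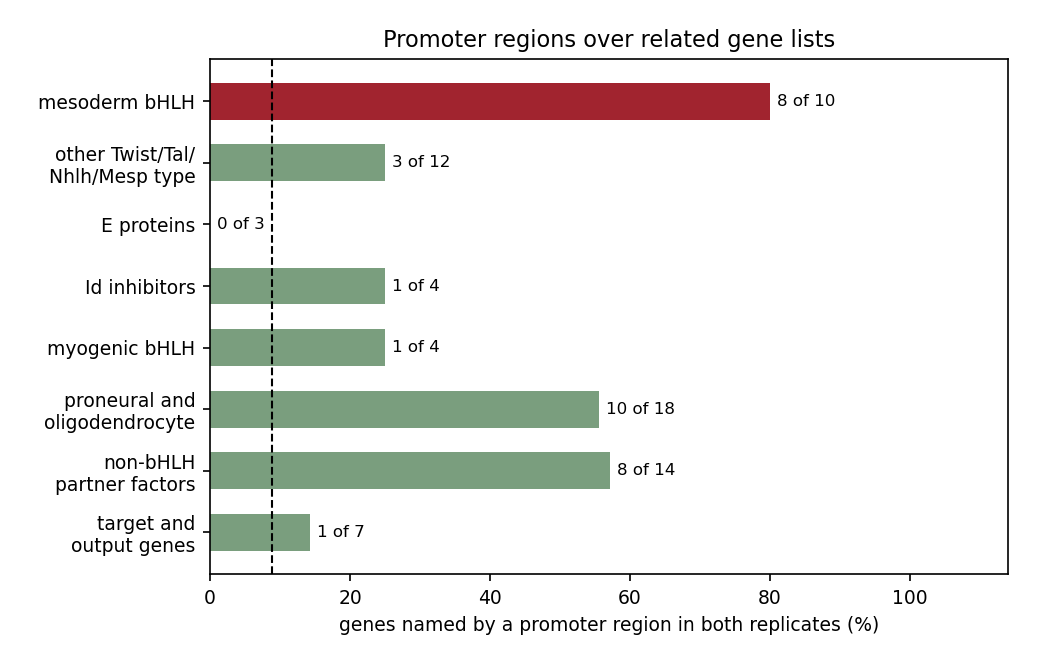
Percent of the genes of each list named by a promoter region in both replicates (bars), with the count at the end of each bar. The dashed line is the 8.82% of all protein-coding genes. The mesoderm bHLH genes stand at 8 of 10, and the E proteins at 0 of 3.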

How the data were processed

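The authors deposited 1 list of regions per H2AK119ub replicate, so regions were not pooled. Per the file headers, a row holds chromosome, start, end, location class and gene names. The submitters' processing notes name Bowtie2 2.3.3, SAMtools 0.1.19 and mm10. Not given in the sources used here are the peak caller and its settings, whether the input was used, the distances behind the classes and the coordinate base. Per the labels, each library started from 4 ng of DNA. The lists hold no depth or strength, so weak and absent signal cannot be told apart, and neighbouring signal may be joined or divided by the caller.

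From these lists, width was taken as end minus start. Gene bounds came from RefSeq GRCm38.p6, with names matched by symbol or else by a synonym that only 1 gene holds. A gene was counted when promoter regions of both replicates carried its name. Promoter windows also came from RefSeq, and 1629 of 1629 overlapping windows on opposite strands matched as reverse complements. No test was made, since there is 1 group. Mean ± SD is over the 2 replicates. The overlap and naming steps were tested on simulated data.

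The genes, lists and alternatives were chosen with earlier results of these data known. The text names all 10 genes, the genes their regions overlap, the nearest region of each gene without one, up to 4 genes per list with the widest regions, and the 2 genes nearest in width to each of the 3 widest. Some content of the lists is not reported here. Other genes named were chosen after their values were seen. Analyses used Python 3.11.15, numpy 2.4.6, pandas 2.3.3, scipy 1.17.1, matplotlib 3.10.9.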

Additional observations from a re-analysis of the deposited data

How the results depend on the processing

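For 23 results, 89 values were computed under alternatives, of which 79 kept within the spread of the replicates or within 1.5 times the count, 10 moved and 0 were reversed. The 8 named genes numbered 8 in either replicate, in each replicate alone, by any location class, by overlap with the gene bounds, within 5000 bp of them and among regions above the median width. Without the widest 5% of regions of each list they numbered 5, by construction. Hand1 and Hand2 lost their regions in both replicates, and Tal1 lost that of replicate 2 alone. The 1908 protein-coding genes became 3552 when either replicate sufficed, 3301 with any location class, 2875 by overlap with the gene bounds and 3726 within 5000 bp of them. Each replicate alone gave 2770 and 2690. The covered share of the gene bounds, averaged over the 10 genes, was 76.7% and fell to 71.1% with bounds extended by 5000 bp on each side. Hand1 then stood at 97.2%, Tcf15 at 85.4%, Tcf21 at 96.9% and Mesp1 at 95.04%, each from 100%. Tcf24 fell from 86.0 to 67.3% and Tal1 from 81.2 to 68.9%, both within the wide spread of their replicates. Joining regions under 2000 bp apart, chosen after seeing the data, changed the width at Mesp1 alone among the 8 genes, from a mean of 13.7 kb to 18.3 kb. With 2 replicates, leaving 1 out cannot move a mean beyond its SD. No paired analysis was possible because there is a single group.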
